A study of Mus musculus with 14 samples.

Results

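Antigen presentation genes of the mouse H2 locus were followed in hindlimb skeletal muscle of mice lacking Myf6 (MRF4), a transcription factor of differentiating and mature muscle fibres. The 10 members were chosen by gene name from the 49585 genes of both deposited tables, and each name matched 1 row in each table. They are the class I heavy chains H2-K1, H2-D1, H2-T23, H2-Q4 and H2-Q7, the class I light chain B2m, the class II chains H2-Aa, H2-Ab1 and H2-Eb1, and the class II invariant chain Cd74. B2m and Cd74 lie outside the H2 locus and were counted with it because their products are parts of class I and class II molecules. RNA was measured in 12 libraries in 4 groups of 3: wild type (WT) muscle without injury, Myf6 knockout (KO) muscle without injury, and injured muscle of each genotype. The labels give neither the strain, age or sex of the animals nor the kind of injury or the time after it. The numbers on the labels give 3 animals per genotype, with L (uninjured) and R (injured) under the same number read here as both legs of 1 animal. WT and KO animals carry different numbers, so genotype and litter or cage cannot be told apart. A ChIP library for Flag-tagged Myf6 and its control, from primary myotubes, complete the series.

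MHC class I molecules stand on nearly every nucleated cell and show peptides made by the proteasome to CD8+ T cells and natural killer cells; each needs a heavy chain, B2m and a peptide carried in by the TAP transporter. MHC class II molecules are largely restricted to dendritic cells, macrophages and B cells, and show peptides from engulfed material to CD4+ T cells, with Cd74 filling the groove until a peptide is loaded. Resting muscle fibres carry little class I and no class II as a rule, so whole muscle RNA also reports on the leukocytes and vessels within it. In these whole-tissue samples fewer cells of a type and less RNA per cell cannot be told apart.

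The promoters of these genes are shown first because class I and class II genes share a layout of short elements. In textbook form, class I promoters carry a kappa B site and an interferon response element upstream of a block that ends in a CRE-like X box and a CCAAT-type Y box, and this block is read by factors that bring in NLRC5 for class I genes and CIITA for class II genes. The promoter table, from RefSeq on GRCm38.p6, held 8 of the 10 members. Printed here are 6 of them, each as the 200 bases before the listed gene, 5′ to 3′ on the gene's own strand. Capitals mark CCAAT (Y box), TGACG (core of the CRE), GAANNGAAA and a form with 1 more A before the open bases (shorter and longer forms of the interferon response element) and the kappa B consensus (10 bases, with some positions open to more than 1 base), each found on either strand; the capitals of overlapping kappa B matches run together, and the CRE letters of H2-Aa overlap its own reverse complement.
H2-D1: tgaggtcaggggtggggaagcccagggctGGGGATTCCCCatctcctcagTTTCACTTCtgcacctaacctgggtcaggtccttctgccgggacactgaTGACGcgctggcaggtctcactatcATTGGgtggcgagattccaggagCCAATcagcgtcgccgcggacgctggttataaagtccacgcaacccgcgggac
H2-T23: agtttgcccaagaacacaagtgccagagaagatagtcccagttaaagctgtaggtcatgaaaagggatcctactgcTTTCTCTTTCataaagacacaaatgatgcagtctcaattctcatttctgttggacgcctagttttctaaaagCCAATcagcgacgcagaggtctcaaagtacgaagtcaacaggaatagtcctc
H2-Q4: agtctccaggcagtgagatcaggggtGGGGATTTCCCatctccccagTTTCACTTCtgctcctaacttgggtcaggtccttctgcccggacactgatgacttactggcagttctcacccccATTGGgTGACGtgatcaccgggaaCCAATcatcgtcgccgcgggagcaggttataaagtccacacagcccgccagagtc
B2m: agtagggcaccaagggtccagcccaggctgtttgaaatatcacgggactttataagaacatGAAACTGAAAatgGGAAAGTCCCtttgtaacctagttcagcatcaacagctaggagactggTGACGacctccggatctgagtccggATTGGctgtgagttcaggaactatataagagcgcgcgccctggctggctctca
H2-Aa: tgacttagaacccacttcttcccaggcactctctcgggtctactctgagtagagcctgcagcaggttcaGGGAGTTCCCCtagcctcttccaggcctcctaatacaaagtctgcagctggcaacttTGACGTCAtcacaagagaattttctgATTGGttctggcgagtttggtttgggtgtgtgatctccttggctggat
H2-Eb1: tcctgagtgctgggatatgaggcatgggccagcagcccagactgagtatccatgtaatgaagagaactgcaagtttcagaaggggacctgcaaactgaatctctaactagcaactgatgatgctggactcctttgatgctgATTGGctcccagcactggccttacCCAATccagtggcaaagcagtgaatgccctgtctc
Their positions are chr17:35262894-35263093 (+) for H2-D1, chr17:36032702-36032901 (-) for H2-T23, chr17:35379417-35379616 (+) for H2-Q4, chr2:122147487-122147686 (+) for B2m, chr17:34287824-34288023 (-) for H2-Aa and chr17:34305667-34305866 (+) for H2-Eb1. The letters of these motifs were chosen after the promoters had been seen.

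Over the 250 bases before the start, CCAAT was found in 8 of 8 members and in 34.5% of 27025 promoters. TGACG was found in 6 of 8 members (all but H2-T23 and H2-Eb1), against 17.9% of promoters. The kappa B consensus was found in 6 of 8 members, H2-K1, H2-D1, H2-Q4, H2-Q7, B2m and H2-Aa, against 3.75% of promoters. The shorter interferon form GAANNGAAA was found in the first 4 of these, against 6.34%, and the longer form in B2m and H2-T23, against 3.04%. In the 4 heavy chain genes with the shorter form the kappa B letters began 20 or 21 bases before it, whereas in B2m they began 13 bases after the longer form. From TGACG to the Y box letters the step was 25 bases in H2-K1, H2-D1 and B2m, 24 in H2-Q7 and 26 in H2-Aa, whereas in H2-Q4 TGACG lay 6 bases after the first Y box. The gamma-activated site TTCNNNGAA was in 0 of 8 members (7.18% of promoters), and the E-box CANNTG, the motif that muscle factors of the Myf6 family bind, was in 4 of 8 (66.0%). Of the marked motifs H2-T23 held the Y box and the longer interferon form in this window. A match says only that the letters are there.

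Flag-Myf6 peaks were counted around the members. The authors' peak list held 12898 peaks, called on 1 ChIP library against 1 control, with no replicate. A peak lay within 10 kb of the start of 1 of the 8 members with a listed start, H2-T23, that is 1 of 8 against 12.9% of 27025 genes. That peak, chr17:36023789-36023942, was 6035 bases from the end of the H2-T23 gene (chr17:36029977-36032701) and had an authors' fold enrichment of 9.11. Within 2 kb there was none (4.07% of all genes), and within 50 kb B2m joined H2-T23 (39.9% of all genes). Between H2-K1 and H2-T23 (chr17:33996012-36032701), which spans all members on that chromosome, 9 peaks gave 4.42 peaks per Mb, against 6.09 over chromosome 17. The peak list names no build in its header. The submitters' processing notes name mm10 and GRCm38.p5, which share the coordinates of the gene table, and peak summits lay within 1 kb of 2.73% of gene starts, against 1.42 to 1.56% after shifts of 100 kb or 1000 kb.

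The RNA libraries differed in depth from 1880087 reads (WT uninjured replicate 2) to 49392472 reads. The label check was clear: Myf6 was at 25.0 to 121 RPM (each gene's share of the library's counted reads, scaled to 1e6) in the 6 WT libraries and at 1.86 to 3.46 RPM in the 6 KO libraries. Mitochondrial genes took 13.8 to 22.3% of reads in WT uninjured muscle, 3.63 to 15.3% in KO uninjured, 8.35 to 14.8% in WT injured and 4.30 to 23.2% in KO injured. The median log2 change over all genes tested was -0.18 for KO against WT in uninjured muscle and 0.01 in injured muscle, so changes are read against those values. KO injured replicate 2, with the highest mitochondrial share, stood apart: without it 2343 genes passed in injured muscle in place of 34, and still none of the members. Comparisons used limma on log2(RPM + 1), which understates the change of low genes, with Benjamini-Hochberg adjustment over all genes tested.

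None of the 10 members passed an adjusted p of 0.05 between KO and WT, in either condition. Over all genes 0.281% of 12460 passed in uninjured muscle and 0.269% of 12625 in injured muscle. In uninjured muscle 9 of the 10 estimates were below 0, with a median of -0.55 against -0.18 for all genes. For 3 members, H2-Q7, H2-Aa and H2-Ab1, every KO library was below every WT library, which held for 15.5% of all genes; for no member was every KO library above, which held for 6.2%. The same 3 had an unadjusted p under 0.05 in the lower direction, as did 10.7% of all genes. In injured muscle 7 of 10 estimates were below 0, the median was -0.14, all members overlapped between genotypes (8.63% of genes were apart with KO lower and 8.29% with KO higher), and no member had an unadjusted p under 0.05 (5.26% of genes in the lower direction).

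**Figure D1:**
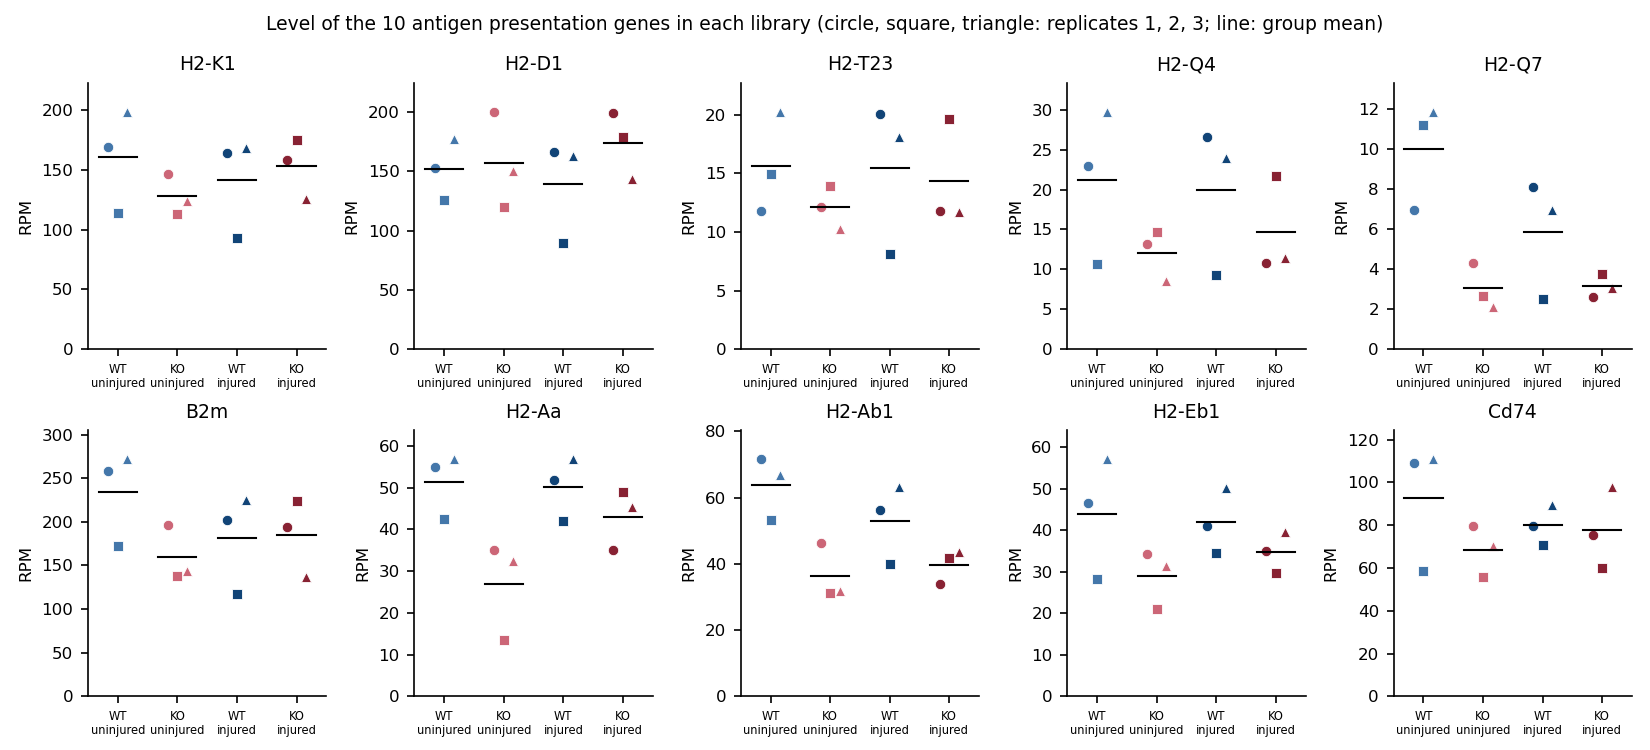
Level of each of the 10 members in RPM (axis from 0) in 4 groups of 3 libraries; circle, square and triangle are replicates 1, 2 and 3 and the line is the group mean. KO uninjured libraries lie below all WT uninjured libraries for H2-Q7, H2-Aa and H2-Ab1, and the other members overlap.

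H2-Q7 had the largest estimate of the members. H2-Q7 encodes a heavy chain of Qa-2, a non-classical class I molecule anchored to the membrane by lipid. Its level was 6.95, 11.2 and 11.9 RPM in WT uninjured replicates 1, 2 and 3 and 4.30, 2.68 and 2.13 RPM in KO uninjured replicates 1, 2 and 3. The means were 9.99 ± 2.66 and 3.03 ± 1.13 RPM (SD, n = 3), and the groups did not overlap. The log2 change was -1.45 ± 0.38 (SE), a fold of 0.366 (95% confidence interval 0.202 to 0.664), with adjusted p = 0.153 (limma). WT replicate 2 rested on 21 reads of H2-Q7. After injury the WT libraries were at 8.10, 2.51 and 6.93 RPM and the KO libraries at 2.62, 3.76 and 3.04 RPM. WT replicate 2 was here the lowest of all 6, and the log2 change was -0.62 ± 0.38 (SE, adjusted p = 0.615, limma).

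H2-Q6, which encodes the same Qa-2 molecule and lies 9084 bases from H2-Q7 (H2-Q6 at chr17:35424850-35430055, H2-Q7 at chr17:35439140-35443773, GRCm38), is no member but bears on it, because near-identical sequence lets counting split or drop their reads; both values are therefore uncertain. H2-Q6 was at 16.96, 10.1 and 18.2 RPM in WT uninjured, 6.20, 2.60 and 3.06 RPM in KO uninjured, 18.2, 8.57 and 15.4 RPM in WT injured and 4.31, 5.26 and 5.12 RPM in KO injured libraries. Every one of the 6 KO libraries was below every one of the 6 WT libraries, which held for 2.26% of 13337 genes and for 0 of the 10 members. The log2 change of H2-Q6 was -1.73 ± 0.41 (SE, adjusted p = 0.116, limma) without injury and -1.30 ± 0.28 (adjusted p = 0.213, limma) with it. On the recovered reads DESeq2 gave adjusted p = 0.00651 and 0.000798 and edgeR 0.0867 and 0.171 for the same comparisons, and the authors' deposited table gives q = 0.0280 and 0.00482. Without KO injured replicate 2 the change of H2-Q6 in injured muscle was -1.34 (adjusted p = 0.0259, limma), in a fit where 19% of 12312 genes passed. For H2-Q7 DESeq2 gave adjusted p = 0.0656 in uninjured muscle, and the authors' deposited table gives q = 0.250.

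Added together after their values were seen, which does not depend on how reads were split between them, H2-Q6 and H2-Q7 reached 23.9, 21.3 and 30.1 RPM in WT uninjured and 10.5, 5.27 and 5.19 RPM in KO uninjured libraries. Shared reads that counting dropped would be missing from the sum as well. In injured muscle the sum was 26.3, 11.1 and 22.3 RPM in WT and 6.93, 9.02 and 8.16 RPM in KO. The lowest WT library, injured replicate 2 at 11.1 RPM, stood just above the highest KO library, uninjured replicate 1 at 10.5 RPM. Relative to B2m in the same library, a measure that library scaling cannot move, the sum was 0.109 ± 0.016 in WT uninjured, 0.0427 ± 0.0095 in KO uninjured, 0.108 ± 0.019 in WT injured and 0.0453 ± 0.0127 in KO injured muscle (SD, n = 3). By this ratio the 6 KO libraries were at most 0.0597 and the 6 WT libraries at least 0.0924. H2-Q6 was named for its large change in these same data and the sum was chosen afterwards. The separation is therefore a description and no test, and its share among other ratios was not computed. The 6 libraries of a genotype come from 3 animal numbers.

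The classical heavy chains H2-K1 and H2-D1, which present peptides to CD8+ T cells, showed no such separation. H2-D1 was at 152, 126 and 177 RPM in WT uninjured and 200.3, 119.9 and 150.3 RPM in KO uninjured libraries, with KO replicates both highest and lowest. Its log2 change was 0.03 ± 0.28 (SE, fold 1.02, 95% confidence interval 0.660 to 1.58, adjusted p = 0.980, limma). In injured muscle H2-D1 was at 166, 89.2 and 163 RPM in WT and 199, 179 and 144 RPM in KO libraries, a log2 change of 0.36 ± 0.28 (SE, adjusted p = 0.706, limma).

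H2-K1 was at 169, 114 and 199 RPM in WT uninjured and 146, 113 and 124 RPM in KO uninjured libraries, a log2 change of -0.30 ± 0.28 (SE, adjusted p = 0.681, limma). With injury it was at 164, 93.0 and 168 RPM in WT and 158, 175 and 126 RPM in KO libraries, and the log2 change was 0.15 ± 0.28 (adjusted p = 0.894, limma). The genotypes overlapped in both conditions. WT injured replicate 2 was the lowest of the 12 libraries for H2-K1, H2-D1, H2-T23 and B2m.

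B2m, the light chain that every one of these class I heavy chains needs to reach the surface, was at 259, 172 and 272 RPM in WT uninjured and 196, 137 and 144 RPM in KO uninjured libraries. The log2 change was -0.55 ± 0.28 (SE, adjusted p = 0.414, limma), and KO replicate 1 lay above WT replicate 2. In injured muscle B2m was at 203, 118 and 225 RPM in WT and 194, 224 and 137 RPM in KO libraries, and the log2 change was 0.05 ± 0.31 (adjusted p = 0.976, limma).

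The non-classical chains H2-Q4 and H2-T23 overlapped between genotypes as well. H2-T23 encodes Qa-1, which shows leader peptides of other class I chains to the NKG2A receptor of natural killer cells. H2-T23 was at 11.7, 14.9 and 20.3 RPM in WT uninjured, 12.1, 13.9 and 10.3 RPM in KO uninjured, 20.03, 8.12 and 18.1 RPM in WT injured and 11.8, 19.6 and 11.7 RPM in KO injured libraries. Its log2 changes were -0.32 ± 0.33 (SE, adjusted p = 0.706, limma) and -0.04 ± 0.37 (adjusted p = 0.982, limma). H2-Q4 was at 23.01, 10.6 and 29.8 RPM in WT uninjured, 13.1, 14.6 and 8.53 RPM in KO uninjured, 26.6, 9.32 and 23.96 RPM in WT injured and 10.8, 21.7 and 11.4 RPM in KO injured libraries. For H2-Q4 the log2 changes were -0.68 ± 0.42 (SE, adjusted p = 0.505, limma) and -0.36 ± 0.44 (adjusted p = 0.817, limma). In both conditions WT replicate 2 had the lowest WT value of H2-Q4, below KO replicate 2.

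**Figure D2:**
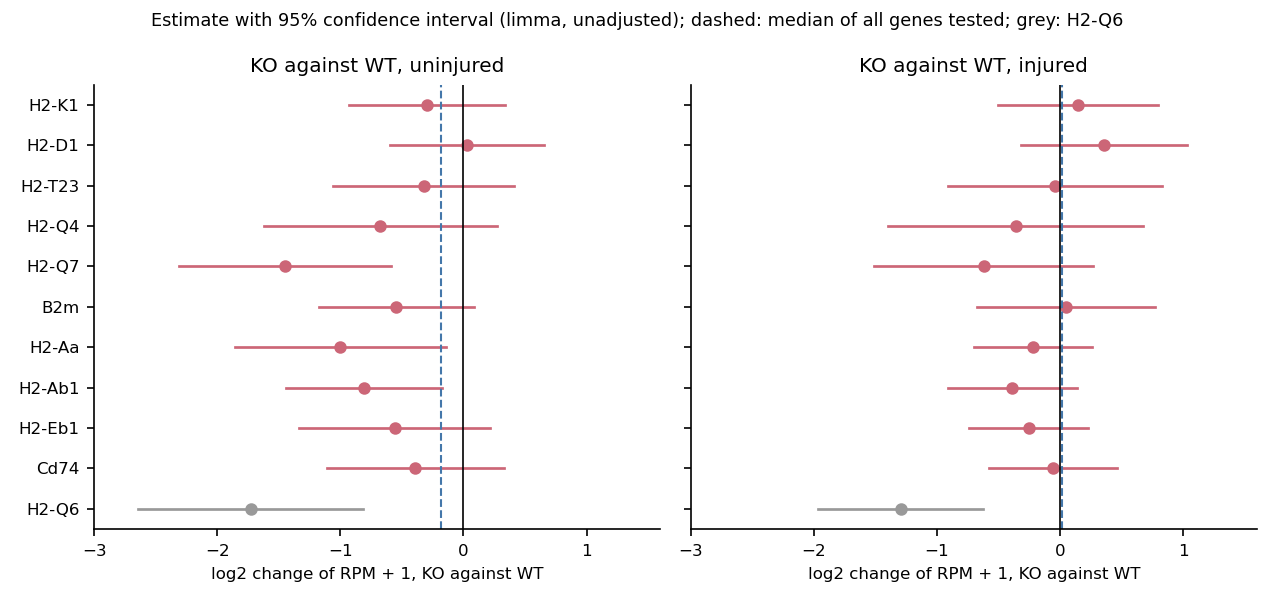
Estimated log2 change of RPM + 1 for KO against WT with its 95% confidence interval (limma, not adjusted), for the 10 members and H2-Q6 (grey), in uninjured and injured muscle; the dashed line is the median of all genes tested. In uninjured muscle the intervals of H2-Q7, H2-Aa, H2-Ab1 and H2-Q6 lie below 0, and in injured muscle that of H2-Q6 alone does.

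Among class II genes, H2-Aa and H2-Ab1 encode the alpha and beta chains of I-A, the class II molecule that presents peptides to CD4+ T cells. H2-Aa was at 55.0, 42.6 and 56.8 RPM in WT uninjured and 35.0, 13.6 and 32.4 RPM in KO uninjured libraries, which do not overlap. Its means were 51.5 ± 7.8 and 27.0 ± 11.7 RPM (SD, n = 3), the log2 change was -1.001 ± 0.380 (SE), the fold was 0.500 (95% confidence interval 0.276 to 0.905) and adjusted p was 0.278 (limma). KO replicate 2 was far the lowest, at 13.6 RPM from 173 reads, and without it the log2 change was -0.59 (adjusted p = 0.322, limma). In injured muscle H2-Aa was at 51.8, 42.1 and 56.9 RPM in WT and 35.0, 48.9 and 45.4 RPM in KO libraries, and the log2 change was -0.22 ± 0.20 (adjusted p = 0.749, limma).

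H2-Ab1 was at 71.7, 53.2 and 66.8 RPM in WT uninjured and 46.4, 31.2 and 31.9 RPM in KO uninjured libraries. Those groups were also apart. Their means were 63.9 ± 9.6 and 36.5 ± 8.6 RPM (SD, n = 3), and the fit gave a log2 change of -0.81 ± 0.28 (SE), a fold of 0.572 (95% confidence interval 0.369 to 0.888) and adjusted p = 0.241 (limma). In injured muscle it was at 56.1, 39.8 and 63.3 RPM in WT and 33.9, 41.8 and 43.6 RPM in KO libraries. WT replicate 2 lay within the KO range there, and the log2 change was -0.39 ± 0.22 (adjusted p = 0.587, limma).

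H2-Eb1, the beta chain of the second class II molecule I-E, and Cd74 overlapped in both conditions. H2-Eb1 was at 46.6, 28.2 and 57.2 RPM in WT uninjured, 34.4, 21.1 and 31.4 RPM in KO uninjured, 41.0, 34.4 and 50.2 RPM in WT injured and 35.0, 29.7 and 39.6 RPM in KO injured libraries. Its log2 changes were -0.56 ± 0.34 (SE, adjusted p = 0.503, limma) and -0.26 ± 0.20 (adjusted p = 0.708, limma). Cd74 was at 109, 58.5 and 111 RPM in WT uninjured, 79.7, 55.6 and 70.4 RPM in KO uninjured, 79.6, 70.8 and 89.6 RPM in WT injured and 75.7, 60.25 and 98.1 RPM in KO injured libraries. The log2 changes of Cd74 were -0.39 ± 0.32 (SE, adjusted p = 0.624, limma) and -0.06 ± 0.22 (adjusted p = 0.954, limma). KO uninjured replicate 2 was the lowest of the 12 libraries for H2-Ab1, H2-Aa, H2-Eb1 and Cd74 alike. H2-Ea-ps, the locus for the alpha chain of I-E, which is a pseudogene in the reference strain, had 0 reads in all 12 libraries, which allows up to 0.0607 to 1.596 RPM (3 reads, depending on depth; counting error only).

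Across the 4 groups the order of the mean levels was WT uninjured, WT injured, KO injured, KO uninjured for H2-T23, H2-Q4, H2-Q7, H2-Aa, H2-Ab1, H2-Eb1 and Cd74. For H2-K1 and B2m KO injured came second, and for H2-D1 KO injured came first and WT injured last. In every member all 3 pairs of neighbours in its order overlapped. From lowest to highest library the span was 1.996-fold for Cd74 to 5.57-fold for H2-Q7.

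Ratios between members within a library do not depend on how libraries are scaled; since RPM is not corrected for gene length, only differences of a ratio between libraries are read. H2-D1 over B2m was 0.589, 0.731 and 0.651 in WT uninjured and 1.02, 0.872 and 1.04 in KO uninjured libraries, with means of 0.657 ± 0.071 and 0.979 ± 0.093 (SD, n = 3) and no overlap. The mean level there was 152 RPM in WT and 157 RPM in KO for H2-D1, and 234 and 159 RPM for B2m, the denominator. In injured muscle the ratio was 0.820, 0.757 and 0.724 in WT and 1.03, 0.798 and 1.05 in KO libraries, where KO replicate 2 was below WT replicate 1. H2-D1 over H2-K1, the 2 classical chains, was 0.968 ± 0.121 in WT uninjured, 1.21 ± 0.16 in KO uninjured, 0.981 ± 0.028 in WT injured and 1.14 ± 0.12 in KO injured muscle (SD, n = 3). Taken per animal over both legs, H2-D1 over H2-K1 was 0.956, 1.03 and 0.931 in WT animals and 1.31, 1.04 and 1.18 in KO animals. KO animal 2 barely cleared WT animal 2.

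H2-Q7 over B2m was 0.0451 ± 0.0190 in WT uninjured and 0.0187 ± 0.0036 in KO uninjured muscle, and 0.0307 ± 0.0093 against 0.0175 ± 0.0044 in injured muscle (SD, n = 3). H2-Q7 over H2-Q4, another of the Q genes, was 0.302, 1.05 and 0.398 in WT uninjured libraries, a mean of 0.583 ± 0.407 that becomes 0.350 without replicate 2 (21 reads over 20), and 0.253 ± 0.072 in KO uninjured libraries, which overlap with WT. It was 0.288 ± 0.018 against 0.227 ± 0.048 in injured muscle. Cd74 over H2-Ab1 was 1.43 ± 0.29 in WT uninjured and 1.90 ± 0.27 in KO uninjured muscle. Of 11 ratios, 5 were apart between genotypes without injury and 2 with it. Most of those 5 have B2m as denominator, so they are not independent of each other. A difference of 3 against 3 libraries cannot go below a two-sided exact permutation p of 0.1, which all 7 ratios that were apart reached. After adjustment over 22 comparisons the lowest exact permutation p was 0.314.

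**Figure D3:**
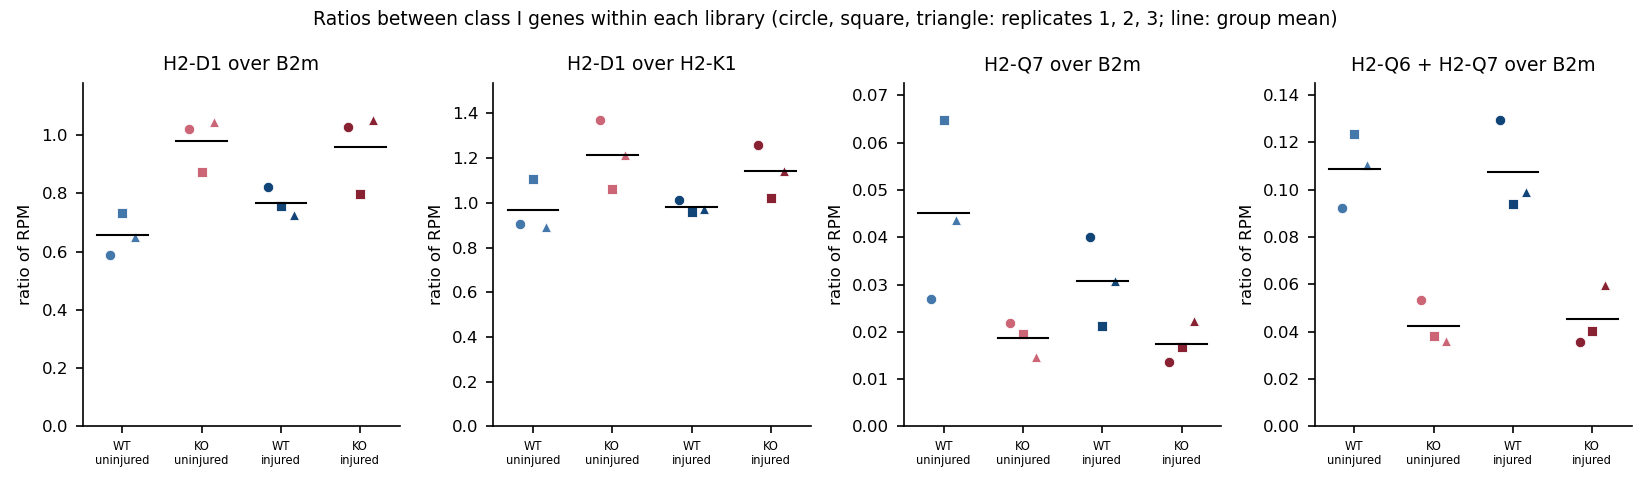
Ratio of RPM (axis from 0) of H2-D1 to B2m, H2-D1 to H2-K1, H2-Q7 to B2m, and H2-Q6 plus H2-Q7 to B2m, in each library; symbols are replicates 1, 2 and 3 and lines are group means. H2-D1 over B2m sits higher and the 2 right-hand ratios sit lower in KO uninjured than in WT uninjured libraries, with no overlap, and the summed ratio is apart in injured muscle too.

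Injury was compared within genotype over all 12 libraries, and no member passed in WT, in KO or in the genotype by injury interaction (limma). This fit took 4 group means with no term for the animal, so it left the pairing of legs unused. With a block for the animal number, 0 of 13337 genes passed in each of the 3 comparisons (limma). Without that block 0% of 13337 genes passed in each of these as well, 172, 468 and 208 genes having an unadjusted p under 0.05. Of the 10 members, 1 had such a p, higher in injured KO muscle, and none had it in the other comparisons. The median log2 change of the members from uninjured to injured muscle was -0.16 in WT (all genes 0.09) and 0.20 in KO (all genes 0.29), and the interaction median was 0.37 (all genes 0.20). The KO median turned negative, between -0.06 and -0.16, under TMM or upper quartile scaling and with DESeq2 or edgeR, so no direction is read from it. Of the members, H2-Aa alone kept its sign in KO muscle under all 16 alternatives (0.33 to 0.98), and it passed in none. The WT median turned to 0.087 without WT injured replicate 2, with 6 of 10 members changing sign, so no direction is read from that one either.

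Within animals the 3 WT and 3 KO pairs of legs did not move alike. In WT animal 3, 9 of 10 members were lower in the injured leg, with a median of -0.21 (all genes -0.01), and in WT animal 2, 8 of 10 were lower, with a median of -0.35 (all genes 0.21). WT animal 1 had 6 of 10 lower (median -0.06, all genes 0.04). In KO animal 2 all 10 members were higher in the injured leg (median 0.51, all genes 0.65), in KO animal 3, 8 of 10 were higher (median 0.35, all genes -0.02), and in KO animal 1, 2 of 10 were higher (median -0.02, all genes 0.19). The widest single values were 1.77 for H2-Aa in KO animal 2 and -1.79 for H2-Q7 in WT animal 2.

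**Figure D4:**
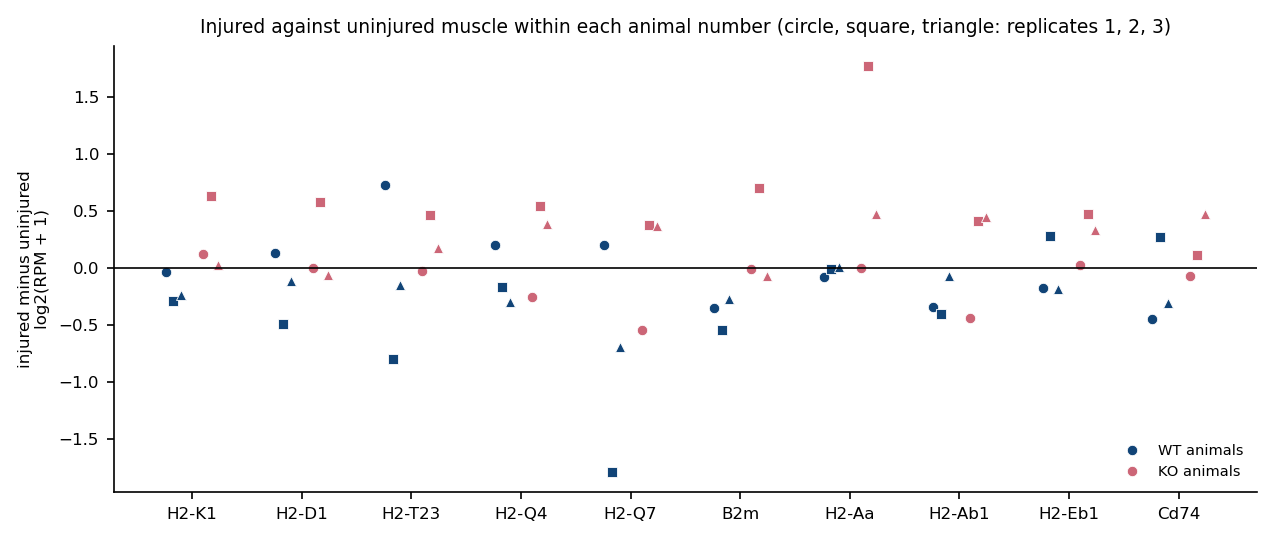
Difference in log2(RPM + 1) between the injured and the uninjured leg of each animal number, for the 10 members; blue symbols are WT and red symbols KO animals, with circle, square and triangle for replicates 1, 2 and 3. KO animal 2 (red squares) is above 0 for all 10 members, and H2-K1 is the only member with all WT animals below 0 and all KO animals above 0.

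The machinery around the members was read from lists of other pathway genes. Of 15 other class I heavy chains and relatives, 10 were tested and none passed in either condition (limma); 5 estimates were lower in KO uninjured muscle (median 0.02) and 3 in KO injured muscle (median 0.16). The medians of these lists are read against -0.18 and 0.01 for all genes in the 2 conditions. Beside H2-Q6, Hfe, a class I relative that controls iron uptake, had the largest change there, at 25.8 ± 2.9 RPM in WT and 11.7 ± 0.7 RPM in KO libraries (SD, n = 3; log2 change -1.07 ± 0.28 SE, adjusted p = 0.153, limma). In injured muscle Hfe was at 28.3 ± 2.2 RPM in WT and 14.7 ± 5.0 RPM in KO libraries (log2 change -0.95 ± 0.25 SE, adjusted p = 0.278, limma). Over both conditions the 6 KO libraries, at most 20.3 RPM, lay below the 6 WT libraries, at least 22.6 RPM. That held for H2-Q6 and for 2.26% of 13337 genes, and both genes were named for large changes in these data. Cd1d1, which presents lipids to NKT cells, had the largest estimate beside H2-Q6 in injured muscle, at 3.92 ± 2.96 RPM in WT and 8.47 ± 3.89 RPM in KO libraries, which overlap (log2 change 1.08, adjusted p = 0.550, limma).

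Of the 8 genes that load peptides onto class I, none passed, and 6 estimates were below 0 in uninjured muscle (median -0.41) and 3 in injured muscle (median 0.11, limma). Tap1, a subunit of the peptide transporter, was at 11.6 ± 0.5 RPM in WT and 6.72 ± 1.74 RPM in KO uninjured libraries (log2 change -0.74, adjusted p = 0.359), and Pdia3, a chaperone of the loading complex, had a log2 change of -0.70 (adjusted p = 0.381). In injured muscle the largest were Canx, a lectin chaperone, at 0.32 (adjusted p = 0.700), and Tap1, at -0.29 (adjusted p = 0.781). The 5 immunoproteasome genes gave no call either, with 4 estimates below 0 without injury (median -0.25) and 2 with it (median 0.04). Psmb8, a catalytic subunit, was at 16.3 ± 3.0 RPM in WT and 8.53 ± 4.42 RPM in KO uninjured libraries (log2 change -0.95, adjusted p = 0.318), and its partner Psmb9 had a log2 change of -0.77 (adjusted p = 0.360); in injured muscle the largest were the activator subunits Psme1, at 0.17 (adjusted p = 0.764), and Psme2, at 0.14 (adjusted p = 0.811).

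On the class II side, 9 of 13 pathway genes were tested without injury and 8 with injury, and none passed (limma). Of these, 7 estimates were below 0 without injury (median -0.71) and 6 with it (median -0.13). Ctss, the cathepsin that trims Cd74, was at 10.3 ± 3.0 RPM in WT and 3.43 ± 1.16 RPM in KO uninjured libraries (log2 change -1.35 ± 0.38 SE, adjusted p = 0.173); on recovered reads DESeq2 gave adjusted p = 0.0226 and edgeR 0.117. H2-Ob, a chain of the loading modulator DO of B cells, was at 4.02 ± 2.099 RPM in WT and 0.487 ± 0.616 RPM in KO uninjured libraries (log2 change -1.72, adjusted p = 0.177), from 43 reads in all in KO. In injured muscle the largest were Ctss, at -0.39 (adjusted p = 0.627), and Lgmn, a lysosomal protease, at 0.20 (adjusted p = 0.789).

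Of the regulators of these genes, the coactivators Ciita and Nlrc5 were at low levels. Others were not, such as Jak1 with group means of 76.9 to 105.7 RPM. Ciita, the class II master coactivator, was at 0.740, 0 and 1.81 RPM in WT uninjured replicates 1, 2 and 3. In that replicate 2, 1 read was 0.532 RPM. In KO uninjured libraries Ciita was at 0 to 0.772 RPM, and it was not tested in either condition. In injured muscle Ciita was at 0.3001 to 0.374 RPM in WT, from 4, 10 and 9 reads, and 0.669 to 1.24 RPM in KO libraries. The groups were apart with KO higher, as held for 8.29% of genes tested, but the WT values lie near the floor. For Ciita the authors' deposited table gives a log2 change of 1.38 with q = 0.994. Nlrc5, its class I counterpart, was at 1.17 to 5.47 RPM, with log2 changes of -0.73 (adjusted p = 0.476) and -0.40 (adjusted p = 0.791, limma). Of 16 regulators 15 were tested and none passed, with 10 estimates below 0 without injury (median -0.17) and 9 with it (median -0.10). The largest estimates were Irf2, an interferon-response factor, at -1.22 (adjusted p = 0.480) and Nfya, a Y box factor subunit, at -1.08 (adjusted p = 0.415) without injury, and Nfyb, its partner, at 0.80 (adjusted p = 0.486) and Ifngr2, an interferon gamma receptor chain, at 0.41 (adjusted p = 0.682) with injury. Without KO injured replicate 2 Nfyb (1.15, adjusted p = 0.0134) and Ifngr2 (0.74, adjusted p = 0.0256) passed, 2 of 15 regulators in the fit where 19% of all genes passed. Irf2 ran from 1.02 to 16.01 RPM within the KO uninjured group.

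Levels of marker genes for the cells that carry these molecules stand beside the members' values here. Summed over 11 macrophage markers, the level was 138 to 265 RPM in WT uninjured and 81.5 to 129 RPM in KO uninjured libraries. In injured muscle it was 167 to 230.1 RPM in WT and 135 to 158 RPM in KO libraries. The 10 markers tested without injury and the 11 with injury all had estimates below 0, and none passed (limma). Their median was -0.97 without injury and -0.45 with it, against -0.18 and 0.01 for all genes. How many of all genes had estimates below 0 was not counted. Fcgr1, the marker not tested without injury, went the other way there. Its mean was 0.665 RPM in WT and 1.27 RPM in KO libraries, which overlap. The 5 pan-leukocyte markers summed to 38.3 to 61.7 RPM in WT uninjured and 20.7 to 36.9 RPM in KO uninjured libraries, and overlapped in injured muscle (27.1 to 54.9 against 27.7 to 43.9 RPM). Dendritic cell markers (8 genes) summed to 14.9 to 18.1 RPM in WT uninjured, 3.78 to 10.6 RPM in KO uninjured, 12.5 to 19.4 RPM in WT injured and 10.3 to 21.5 RPM in KO injured libraries. Of this list Cd209a, a lectin of dendritic cells singled out after its values were seen, was at 1.32 to 2.13 RPM in WT uninjured and 0 to 0.117 RPM in KO uninjured libraries, and at 1.83 to 3.48 against 0 to 0.182 RPM in injured muscle. Cd209a was apart with KO lower in both conditions, as held for 15.5% of genes tested without injury and 8.63% with it. Its KO values lie near the floor, and 1 WT uninjured library rested on 4 reads. For Cd209a limma gave adjusted p = 0.148 and 0.0689, and the authors' deposited table gives q = 0.0280 and 1.62e-05. In injured muscle that table has Ccr7, Itgax and Xcr1 of this list higher in KO (log2 changes 3.06, 1.16 and 0.84, q at least 0.409). It has Batf3, Clec9a and Flt3 lower (log2 changes -0.934, -0.795 and -0.604) and Zbtb46 near 0 (-0.0095), each with q = 0.994. Without injury Xcr1 alone of the list was higher in KO (1.24, q = 0.986). B cell markers (5 genes) ran from 9.57 to 18.9 RPM in WT uninjured, 1.099 to 10.1 RPM in KO uninjured, 1.42 to 7.20 RPM in WT injured and 2.70 to 6.58 RPM in KO injured libraries. T and natural killer cell markers (7 genes) summed to 3.19 to 11.6 RPM in WT uninjured, 0.0787 to 4.79 RPM in KO uninjured, 1.16 to 2.85 RPM in WT injured and 1.55 to 8.77 RPM in KO injured libraries. Neutrophil markers (5 genes) summed to 0.532 to 6.69, 1.08 to 3.86, 0.711 to 4.36 and 1.56 to 4.48 RPM in the same order. Macrophage, pan-leukocyte and dendritic cell sums thus did not overlap between genotypes in uninjured muscle, while the B cell, T cell and neutrophil sums overlapped. Taken singly, 7 of 10 macrophage and 1 of 5 pan-leukocyte markers tested there were apart with KO lower, against 15.5% of genes. Only 2 of 8 dendritic cell markers were tested, both apart with KO lower. Zbtb46 gave 10.4 of the mean dendritic sum of 16.7 RPM in WT uninjured and 5.88 of 7.87 RPM in KO uninjured muscle. In injured muscle the macrophage sums alone among these lists did not overlap between genotypes. Singly, 4 of 11 macrophage markers were apart there with KO lower, against 8.63% of genes. Ncr1 of natural killer cells had 0 reads in 9 of 12 libraries, and the neutrophil genes Ly6g and Mmp8 in 11 and 7. The part of these cells in the class I and class II values was not tested.

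Sums of markers for other cells of the tissue were read as well. Only the muscle fibre sum was apart between genotypes, and only without injury. Taken singly, 3 of its 8 markers were apart there with KO higher, against 6.2% of genes tested. Muscle fibre markers (8 genes) took 136014 to 143903 RPM in WT uninjured and 178198 to 200787 RPM in KO uninjured libraries, which do not overlap, and 141169 to 174842 against 128803 to 176731 RPM in injured muscle. Endothelial markers (7 genes), from cells that carry class I, were at 247 to 306 RPM in WT uninjured and 265 to 306 RPM in KO uninjured libraries, and at 194 to 308 against 289 to 541 RPM in injured muscle. Fibroblast markers (5 genes) were at 399 to 1279 RPM in WT uninjured, 321 to 874 RPM in KO uninjured, 826 to 947 RPM in WT injured and 727 to 857 RPM in KO injured libraries. The part of fibre, vessel and connective tissue RNA in the members' values was not tested.

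**Figure D5:**
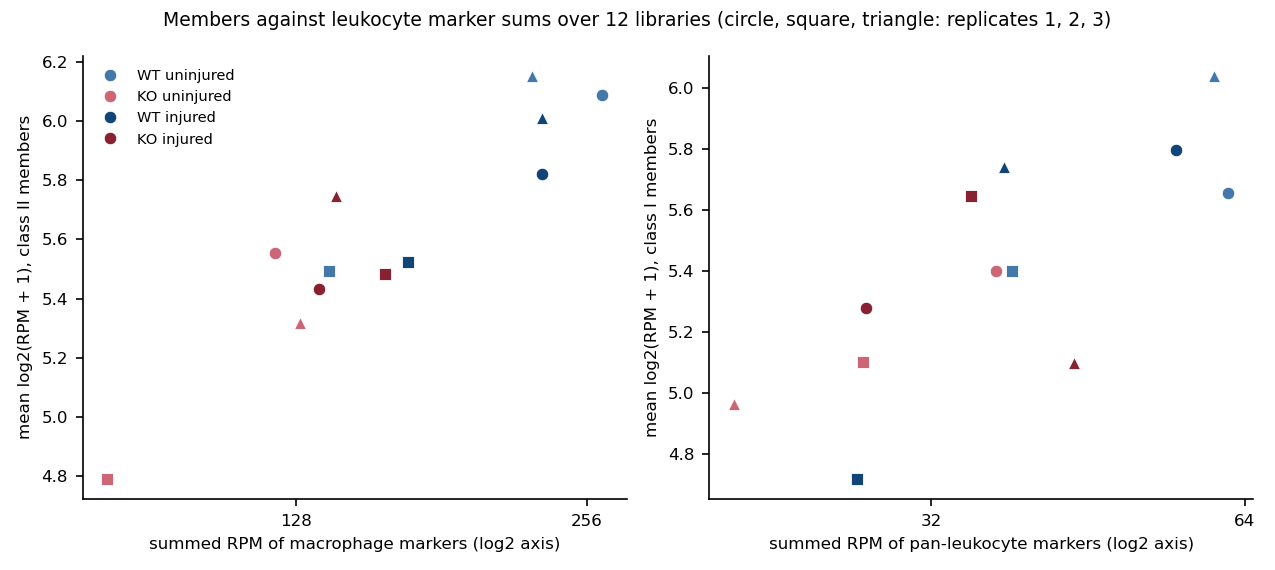
Left, mean log2(RPM + 1) of the 4 class II members against the summed RPM of 11 macrophage markers (log2 axis); right, the same for the 6 class I members against 5 pan-leukocyte markers; each symbol is 1 of 12 libraries. KO uninjured replicate 2 is lowest on both axes of the left panel, and WT injured replicate 2 is lowest for class I in the right panel.

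Over the 12 libraries, as a description that includes the group differences and shared depth, the class II mean had Pearson r = 0.92 with the macrophage sum, 0.78 with the pan-leukocyte sum, 0.78 with the fibroblast sum, 0.07 with the endothelial sum and -0.65 with the muscle fibre sum, on log scales. The class I mean had r = 0.77 with the pan-leukocyte sum, 0.64 with the macrophage sum, 0.47 with the endothelial sum, 0.39 with the fibroblast sum and -0.70 with the muscle fibre sum. With the neutrophil, B cell, dendritic cell, and T and natural killer cell sums, r was 0.69, 0.65, 0.60 and 0.44 for class I. For class II it was 0.26, 0.56, 0.75 and 0.69 in the same order. Among the members themselves the closest pairs were H2-K1 with B2m (r = 0.93) and H2-Eb1 with Cd74 (r = 0.91), and the loosest was H2-T23 with Cd74 (r = 0.08). Within groups, after group means were taken out, H2-K1 and B2m kept r = 0.97. The median r was 0.68 over the 15 class I pairs, 0.77 over the 6 class II pairs and 0.52 over the 24 pairs between the classes.

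Of 9163 genes with a mean of at least 5 RPM, those most like the class II mean over the 12 libraries were Lyz2 (lysozyme of macrophages, r = 0.95), Degs1 (a sphingolipid desaturase, 0.94), Mpc2 (a subunit of the mitochondrial pyruvate carrier, 0.94), Cxcl14 (a chemokine, 0.93) and Efemp1 (a matrix glycoprotein, 0.93). Lyz2 ran from 23.6 to 91.5 RPM. Those most like the class I mean were Psmb9 (r = 0.93) and Psmb8 (0.91), both immunoproteasome subunits encoded in the H2 locus, followed by Id3 (an inhibitor of bHLH factors), 2310016D23Rik and Dxo (an RNA decapping enzyme), each at r = 0.89. Psmb9 ran from 2.81 to 11.4 RPM and Psmb8 from 4.96 to 19.7 RPM.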

How the data were processed

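RNA-seq covered 12 libraries of hindlimb muscle, made with TruSeq RNA v2 per the labels' protocols. For each condition the authors deposited a table of RPM per library with their own log2 fold change of WT over KO, its standard error (held here as a score), p-value and q-value; every RPM column sums to 1e6. Per the submitters' processing notes the tools were HISAT2 2.1.0, SAMtools, featureCounts and DESeq2 for unstated steps, Bowtie 1.1.0 and MACS2 2.1.0.20140616, and the builds mm10 and GRCm38.p5. Use of strand in counting, and the treatment of reads shared between near-identical genes, are not given in the sources used here. In the peak file, fold enrichment (a ratio), pileup (a coverage signal) and −log10 q are the authors' values, per the file headers.

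Every RPM value tested (100%) was a whole number of reads within 0.1 read, so reads were recovered. The main test was limma 3.58.1 (R 4.3.3) with trend on log2(RPM + 1), for genes reaching 1 RPM in 3 or more of the libraries fitted, Benjamini-Hochberg over all genes, threshold 0.05, two-sided; KO against WT used the 6 libraries of a condition, injury and interaction all 12. Alternatives were DESeq2 1.42.0 and edgeR 4.0.16 on recovered reads, TMM, upper quartile and non-mitochondrial scaling, a pseudocount of 0.1, no filter or a stricter filter, a replicate block, all 12 libraries in 1 fit, each library left out, and, chosen after seeing the data, edgeR with a replicate block. On data simulated for KO against WT in uninjured muscle (12590 genes), limma called 13.5% of 96 genes changed by 1 on the log2 scale, 93.3% of 104 changed by 2 and 4 of 12390 unchanged. The simulation gave every gene the same dispersion, placed changes only in genes above a set mean level and held no mitochondrial shift between genotypes. Its rates check the fit and are not the power for the members. P-values measure the spread between these samples; nothing says which animals were littermates. Promoter and gene tables were RefSeq, GRCm38.p6; H2-K1 and H2-Q7 promoters are not printed because their listed start lies 272 and 15 bases inside the gene span.

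Named genes are the 10 members, the 2 largest absolute changes of each pathway list in each KO against WT comparison, H2-Ea-ps, Ciita, Nlrc5, Myf6, markers at 0 reads in at least 6 libraries, and the 5 genes most like each class. Members and lists were chosen with earlier results of these data known.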

Additional observations from a re-analysis of the deposited data

Results flagged for a closer look

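H2-K1, the classical class I heavy chain, was the only member whose injured leg was lower in all 3 WT animals (-0.04, -0.29 and -0.24 on the log2 scale) and higher in all 3 KO animals (0.12, 0.63 and 0.02). The median of all genes in those KO animals was 0.19, 0.65 and -0.02, so H2-K1 lay below it in the first 2. The change of H2-K1 in KO muscle, 0.25 over all animals, turned negative under 5 of 16 alternatives: -0.055 with DESeq2, -0.045 with edgeR, -0.039 with edgeR and a replicate block, -0.019 with TMM and -0.12 with upper quartile scaling. In WT muscle it turned under 1 of 16, to 0.087 without WT injured replicate 2. The difference between these effects, the interaction term over all 12 libraries, was 0.44 on the log2 scale and did not pass (limma, adjusted p = 0.9999). Over 22 alternatives it ran from 0.15 to 0.67, and none passed; without WT injured replicate 2 it was 0.17.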

How the results depend on the processing

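Over 180 values of the members for KO against WT in uninjured muscle, 175 kept their direction and missed the threshold, 2 passed and 3 turned; of 180 in injured muscle, 170 kept both and 10 turned. The 13 that turned belong to members whose estimate with all libraries was at most 0.15 in size. H2-D1 in uninjured muscle was -0.13 with scaling outside mitochondrial genes and -0.16 to 0.20 with single libraries left out. In injured muscle leaving out single libraries gave -0.13 to 0.29 for H2-K1, -0.42 to 0.18 for H2-T23, -0.24 to 0.25 for B2m and -0.23 to 0.11 for Cd74. The median of the members for injured against uninjured KO muscle was -0.11 with DESeq2, -0.10 with edgeR, -0.064 with TMM, -0.16 with upper quartile scaling and -0.084 with edgeR and a replicate block; that for WT was -0.41 to 0.087 with single libraries left out, positive only without WT injured replicate 2. Peaks lay near 0 members at 2 kb and 2 at 50 kb.

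Replicate numbers join different animals of the 2 genotypes, and same-numbered deviations correlated at 0.04, 0.26 and 0.37 in uninjured and -0.45, -0.60 and -0.30 in injured muscle, so they do not pair. With a replicate block 2 members passed in uninjured muscle, H2-Q7 (adjusted p = 0.0460) and H2-Aa (0.0462), none with edgeR and the block, and none in injured muscle. H2-Q6 passed under 6 of 18 alternatives in uninjured and 3 of 18 in injured muscle.

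Over all genes the 35 calls in uninjured muscle became 663 (DESeq2), 55 (edgeR), 96 (TMM), 162 (upper quartile), 205 (outside mitochondrial genes, 173 of them lower), 20 (pseudocount 0.1), 1 (no filter), 7 (stricter filter), 752 (replicate block), 391 (edgeR and block), 167 (12 libraries) and 3 to 84 (libraries left out). The 34 in injured muscle became 427 (DESeq2), 19 (no filter), 4 (stricter filter), 0 (either block fit), 56 (12 libraries) and 0 to 2343 (libraries left out). WT uninjured replicate 2, with 1880087 reads, limits the low genes: 3 reads were 1.596 RPM there.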
